A study of Homo sapiens with 4 samples.

Results

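The transcripts of TXNIP, of its relatives ARRDC1, ARRDC2, ARRDC3 and ARRDC4, of the glucose-sensing factor MLXIP, of the factors FOXO1, FOXO3 and FOXO4, and of the reductase TXNRD1 were followed in neuroblastoma cells depleted of METTL14. The 10 genes were chosen by symbol, with their difference between the METTL14 knockdown and the control already known. Their levels and fold changes in that comparison are therefore given as a description, without a test. They are 10 of the 60671 gene IDs in the count table, and all 10 were among the 16309 genes with enough reads to be tested.

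The cells were of SK-N-BE(2), an established human line from a neuroblastoma in which MYCN is amplified. One group carried a control short hairpin RNA (shNC) and the other a hairpin against METTL14 (shMETTL14), a subunit of the enzyme that writes N6-methyladenosine on RNA. Per the study's methods, hairpins were delivered with the lentiviral vector pLKO.1, and the labels do not say which METTL14 hairpin was sequenced. Each group had 2 libraries of total RNA, and nothing in the labels says whether these came from separate cultures. All errors therefore describe the spread between these libraries only, which for the standard errors (SE) is moderated across genes.

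The libraries held between 18925786 and 19886214 reads in genes. METTL14 itself had 753 and 754 reads in the shNC libraries and 303 and 321 in the shMETTL14 libraries, a log2 fold change of -1.26 (SE 0.0832; edgeR adjusted p = 3.6e-11). All 12 noradrenergic neuroblastoma markers examined, among them HAND2, DBH and MYCN, were detected. Their summed level was 7121 to 7267 CPM (counts scaled to a common library size) in shNC and 7343 to 7380 CPM in shMETTL14. Of 10 markers of leukocytes, epithelium, endothelium, hepatocytes and fibroblasts, 6 could be tested and 4 were lower in shMETTL14. Their summed level was 39.8 and 40.6 CPM in shNC and 18.5 and 21.3 CPM in shMETTL14, most of it from PDGFRA and COL1A1, while CD3E, CD68 and PECAM1 had at most 3 reads in any library. Whether these reads came from the line itself or from any other cells was not tested, nor was their part in the results below.

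TXNIP and the ARRDC proteins are alpha-arrestins, adaptors with an arrestin fold. Most of them recruit ubiquitin ligases of the NEDD4 family to receptors and transporters at the membrane, which are then taken into the cell. TXNIP also binds reduced thioredoxin, and TXNIP and ARRDC4 both lower glucose uptake. Transcription of TXNIP and ARRDC4 is driven by MondoA, the product of MLXIP, which moves to the nucleus with its partner MLX when sugar phosphates build up and binds carbohydrate response elements, each built of a pair of E-box-like half-sites. FOXO factors are forkhead activators that kinases such as AKT and SGK1 keep out of the nucleus, where they otherwise switch on genes of cell cycle arrest, stress resistance and starvation.

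The upstream sequences of TXNIP and ARRDC4 are shown because these were the members with the largest decreases and because MondoA acts on both. Each runs for 250 bases up to a RefSeq transcript start (GRCh38.p14), 5′ to 3′ on the gene's strand. In TXNIP (chr1:145996580-145996829, minus strand) the capitals mark a FOXO word, TGTTTAC read on the other strand, and then a pair of half-sites. In ARRDC4 (chr15:97960453-97960702, plus strand) they mark the E-box CACGTG. The last bases of both windows already lie inside transcripts of GENCODE release 29.

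TXNIP: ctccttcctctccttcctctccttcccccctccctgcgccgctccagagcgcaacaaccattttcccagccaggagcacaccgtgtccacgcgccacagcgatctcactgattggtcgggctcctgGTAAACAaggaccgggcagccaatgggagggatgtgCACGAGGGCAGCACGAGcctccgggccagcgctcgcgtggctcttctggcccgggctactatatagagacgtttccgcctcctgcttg

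ARRDC4: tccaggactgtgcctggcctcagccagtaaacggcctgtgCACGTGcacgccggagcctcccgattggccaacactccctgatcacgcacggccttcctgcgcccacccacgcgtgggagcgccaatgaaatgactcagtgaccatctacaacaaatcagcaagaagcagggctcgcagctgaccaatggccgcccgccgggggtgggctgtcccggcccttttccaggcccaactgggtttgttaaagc

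A search on both strands of the 17 upstream windows that RefSeq gives for the 10 genes found the half-site pair, CACGNGNNNNNCNCGNG, in 1 window. It was the TXNIP sequence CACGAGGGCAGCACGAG, which begins 88 bases before the start. The pair was present in 149 of 35116 windows of the same length over all genes, or 0.424%. The E-box CACGTG, which can also form 1 site of such a pair, was found in the ARRDC4 window alone, 210 bases before its start, against 6.34% of all windows. The FOXO word TGTTTAC occurred in TXNIP, 124 bases before the start, and in the second window of ARRDC3, 29 bases before its start, against 2.98% of all windows. The NF-Y box CCAAT was held 3 times by the ARRDC4 window and 2 times by the TXNIP window, but 32% of all windows had it. These are matches of letters in short windows and say nothing of binding.

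**Figure D1:**
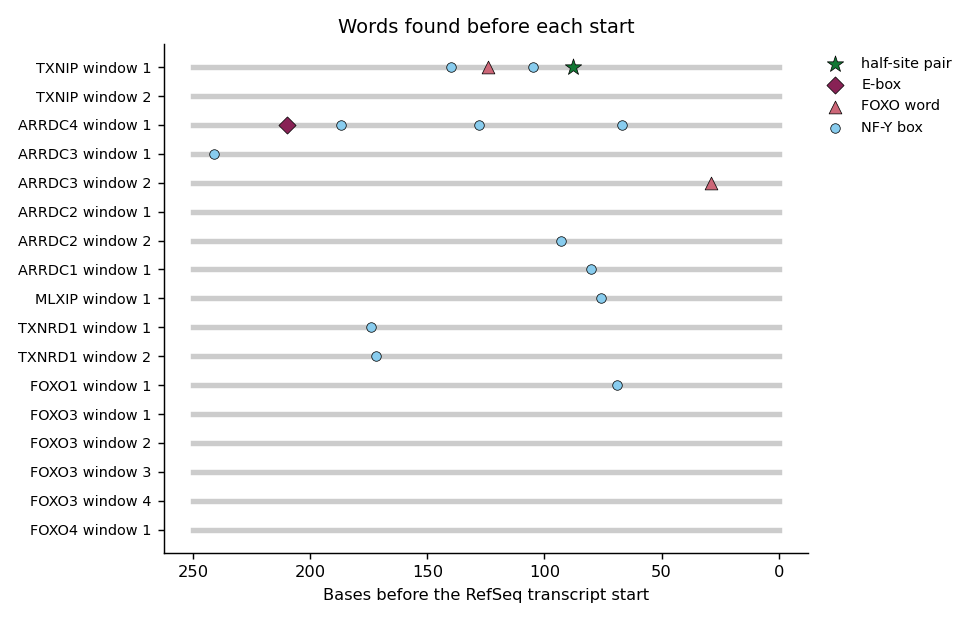
Positions of 4 words in the 17 upstream windows of the 10 genes. Each grey line is a window of 250 bases, the horizontal axis gives the distance in bases from the first base of a word to the RefSeq start, and symbols mark the half-site pair, the E-box, the FOXO word and the NF-Y box. The half-site pair is found in TXNIP, 88 bases before the start, and the E-box in ARRDC4, 210 bases before it.

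Genes outside the set whose windows held these words were read in the same fit, a comparison added after the results had been seen. Of 100 tested genes with a half-site pair, 31 were called higher and 29 lower in shMETTL14, with a median log2 fold change of -0.013. Of 338 with the FOXO word, 93 were called higher and 105 lower, with a median of -0.04. Of 1276 with the E-box, 408 were called higher and 335 lower, with a median of 0.029. Of 4685 with the NF-Y box, 1508 were called higher and 1226 lower, with a median of 0.026. Among all 11325 tested genes that had a window, 31.2% were called higher and 26.3% lower, with a median of 0.018.

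TXNIP (ENSG00000265972; GENCODE 29 chr1:145992435-145996600, minus strand) had 3378 and 3146 reads in the shNC libraries and 979 and 1039 in the shMETTL14 libraries. Both knockdown libraries lay far below both controls. Scaled by library, this was 167 ± 3.67 CPM in shNC and 52 ± 2.82 CPM in shMETTL14 (SD, n = 2 each), so that 31.2% of the control level was left. The log2 fold change was -1.68 (SE 0.0499), or 3.21-fold lower, and it stayed between -1.73 and -1.62 when any 1 library was left out. Of all genes tested, 2.12% had a lower log2 fold change than TXNIP and 2.96% a larger one in size. The median size over all genes was 0.30. In bulk RNA, fewer cells with a transcript and less of it per cell cannot be told apart.

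ARRDC4 (ENSG00000140450; chr15:97960698-97973838, plus strand), the relative of TXNIP that acts with it on glucose transporters, came next. It had 775 and 699 reads in shNC and 278 and 268 in shMETTL14. Again the groups were well apart, at 37.7 ± 1.68 and 14.1 ± 0.193 CPM (SD, n = 2 each), which left 37.3% of the control level. This corresponds to a log2 fold change of -1.42 (SE 0.0853). Neither TXNIP nor ARRDC4 overlaps another gene in GENCODE 29.

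ARRDC2 and ARRDC3 were lower by less. ARRDC3, an adaptor for integrin beta-4, had 1030 and 984 reads in shNC and 675 and 697 in shMETTL14. This was 51.5 ± 0.205 and 35.3 ± 1.23 CPM (SD, n = 2 each), a log2 fold change of -0.54 (SE 0.0655). ARRDC2 had 187 and 163 reads in shNC and 107 and 108 in shMETTL14, a log2 fold change of -0.69 (SE 0.145). In both genes every shNC library was above every shMETTL14 library. ARRDC3 shares 145 exon bases with ARRDC3-AS1 on the other strand, which had only 25 to 40 reads in any library.

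ARRDC1, which recruits TSG101 to bud vesicles from the plasma membrane, differed from its relatives in that its groups overlapped. Its reads numbered 73 and 85 in shNC and 99 and 68 in shMETTL14, with both control libraries inside the knockdown range. The log2 fold change was 0.087 (SE 0.208), and it lay between -0.19 and 0.33 when any 1 library was left out. Its antisense gene ARRDC1-AS1, with 272 to 349 reads in each library, was more abundant than ARRDC1 itself and shares 29 exon bases with it. Without knowledge of strand, reads of that stretch cannot be told apart.

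**Figure D2:**
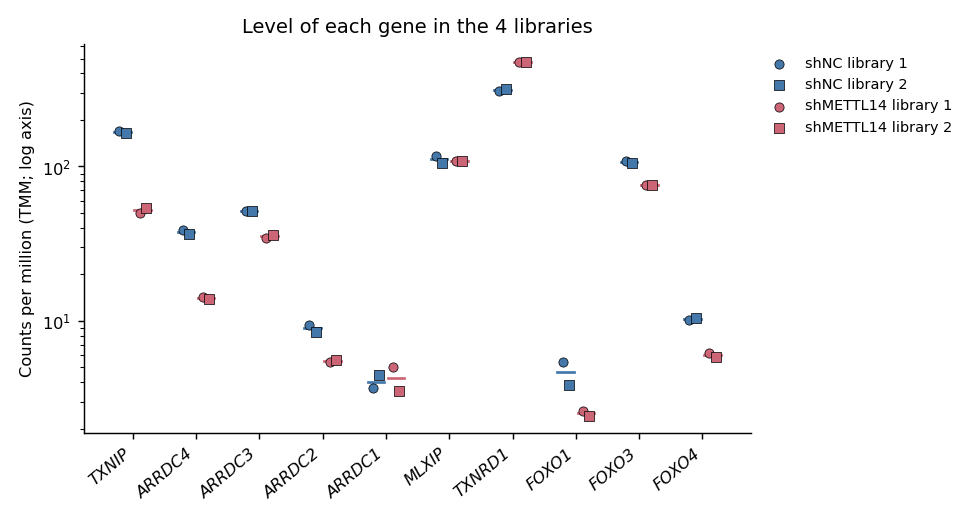
Level of the 10 genes in each of the 4 libraries, in CPM on a log axis, with circles for library 1, squares for library 2 and short lines for group means. The shNC and shMETTL14 libraries overlap for ARRDC1 and MLXIP and are apart for the other 8 genes.

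MLXIP, which encodes MondoA, showed no such difference as TXNIP and ARRDC4. Its reads numbered 2327 and 2016 in shNC and 2113 and 2071 in shMETTL14, with both knockdown libraries inside the control range. The level was 111 ± 8.11 CPM in shNC and 108 ± 0.218 CPM in shMETTL14 (SD, n = 2 each). The log2 fold change was -0.043 (SE 0.05), and it turned to 0.029 without shNC library 1.

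TXNRD1, the cytosolic selenoprotein that reduces thioredoxin, was the member with a higher level in shMETTL14. It had 6142 and 6116 reads in shNC and 9243 and 9178 in shMETTL14. The 2 libraries of each group were close together and the groups far apart, at 314 ± 7.95 and 474 ± 3.41 CPM (SD, n = 2 each). The log2 fold change was 0.60 (SE 0.0387), or 151% of the control.

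FOXO1, FOXO3 and FOXO4 were all lower in shMETTL14. FOXO3, by far the most abundant of them, had 2158 and 2016 reads in shNC and 1478 and 1461 in shMETTL14, or 107 ± 2.11 and 75.7 ± 0.302 CPM (SD, n = 2 each). FOXO4 had 202 and 200 reads in shNC and 122 and 113 in shMETTL14. In both genes the groups were apart, and the log2 fold changes were -0.50 (SE 0.0473) for FOXO3 and -0.76 (SE 0.136) for FOXO4. FOXO1 was the weakest and most variable, with 108 and 74 reads in shNC and 51 and 47 in shMETTL14. Its log2 fold change of -0.88 (SE 0.225) became -0.62 without shNC library 1, and FOXO1 was then no longer among the genes called.

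**Figure D3:**
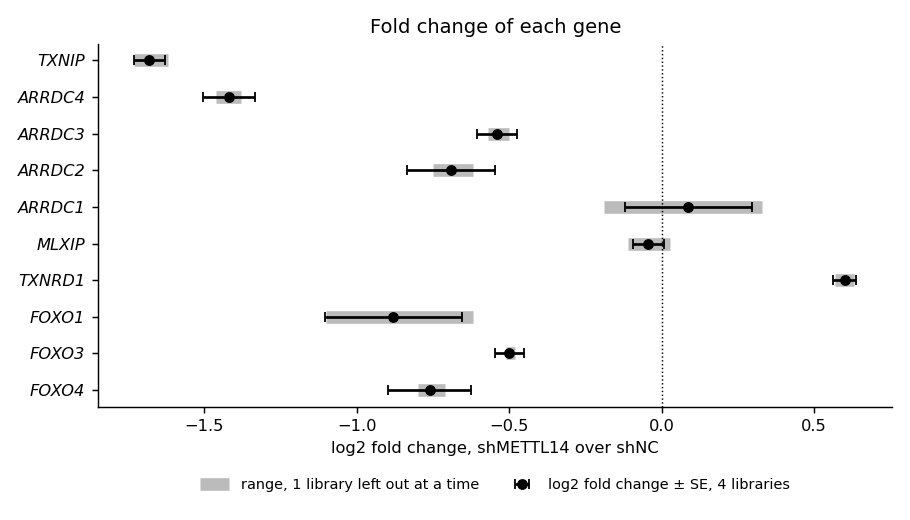
Log2 fold change of each gene, shMETTL14 over shNC (horizontal axis). Points with bars give the value and its standard error from the fit to the 4 libraries. Grey bars give the range when 1 library at a time is left out. TXNIP (-1.68) and ARRDC4 (-1.42) lie farthest to the left, TXNRD1 (0.60) lies to the right of 0, and the grey bars of ARRDC1 and MLXIP cross 0.

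In the fit over the whole table, 8 of the 10 genes were called at an adjusted p under 0.05, 7 of them lower and 1 higher in shMETTL14. The call itself was common here, since 52.5% of all genes tested were called, 27.2% higher and 25.3% lower. The 2 groups did not overlap in 8 of the 10 genes and in 75.5% of all genes. TXNIP and ARRDC4 were called and changed at least 2-fold, as were 8.79% of all genes. The median log2 fold change was -0.62 over the 10 genes and -0.00095 over all genes. Because the genes were chosen with this comparison in view, nothing is read from these counts. The split between directions depended on scaling, with 51.8% of the calls over the whole table being higher with TMM factors and 41.7% with upper quartile factors.

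To order the genes by abundance, CPM was divided by the length of annotated exons in kilobases, with the exons of all transcripts of a gene merged. The transcripts present can be shorter than this, so the order between genes depends on the length used. In shNC, TXNRD1 (46.8 ± 1.18 CPM per kb) and TXNIP (46 ± 1.01 CPM per kb) stood together at the top, with overlapping libraries (SD, n = 2 each). FOXO3 (13.8), ARRDC3 (10.4), ARRDC4 (9.26) and MLXIP (7.98 CPM per kb) followed, each pair of neighbours being apart in both libraries. FOXO4 (2.99), ARRDC2 (1.93), ARRDC1 (1.06) and FOXO1 (0.745 CPM per kb) closed the order.

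In shMETTL14, TXNRD1 and TXNIP kept the first and second rank but no longer overlapped. TXNIP, at 14.3 ± 0.777 CPM per kb, lay far below TXNRD1 at 70.7 ± 0.508 CPM per kb (SD, n = 2 each). The order changed for MLXIP, which at 7.75 CPM per kb now stood above ARRDC3 at 7.16 and ARRDC4 at 3.45 CPM per kb. ARRDC2 and ARRDC1, at 1.19 and 1.12 CPM per kb, overlapped.

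The ratio of TXNIP to TXNRD1 on this scale was 1.02 and 0.952 in the shNC libraries and 0.196 and 0.209 in the shMETTL14 libraries. The 2 genes were thus about equal per length of merged exons in control cells. After knockdown TXNIP was the rarer on this scale, the ratio being 20.6% of its control value. The ratio of ARRDC3 to ARRDC4 was 1.1 and 1.16 in shNC and 2 and 2.15 in shMETTL14. Summed per length, TXNIP and ARRDC1 to ARRDC4 had 68.7 ± 1.46 CPM per kb in shNC and 27.3 ± 0.72 CPM per kb in shMETTL14 (SD, n = 2 each). The 3 FOXO genes together had 17.6 ± 0.386 and 12 ± 0.053 CPM per kb, or 68.1% of the control, most of it from FOXO3. Both sums are made of the chosen genes and describe them only.

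**Figure D4:**
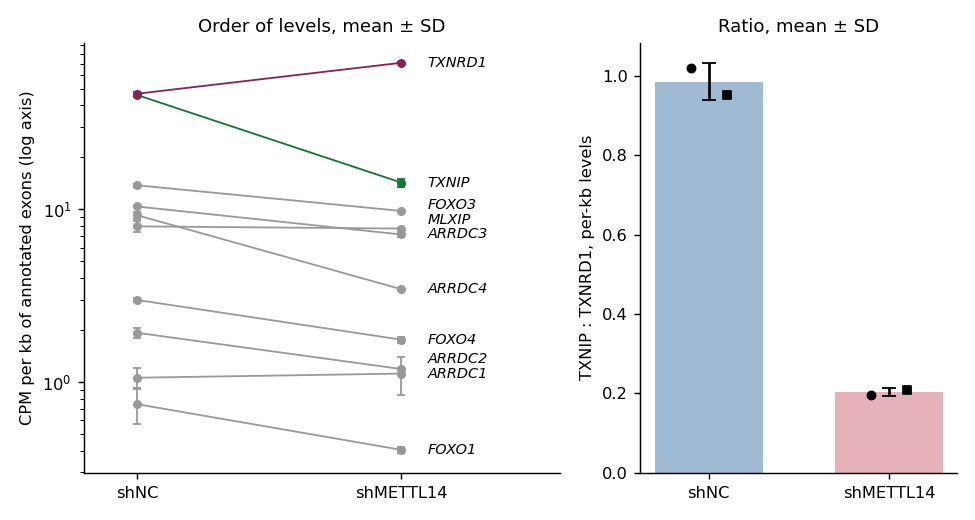
Left, level of each gene per kilobase of annotated exons (CPM per kb, log axis) in shNC and shMETTL14, as mean and SD of 2 libraries. Right, ratio of TXNIP to TXNRD1 on the same scale, with bars for the mean, error bars for the SD and points for the libraries. The TXNIP line drops from 46 to 14.3 while the TXNRD1 line climbs from 46.8 to 70.7, and the ratio goes from 0.985 to 0.203.

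The genes whose 4 values lay nearest to those of TXNIP, after the shNC mean was taken off each gene's log2 CPM, were HLA-E, VDAC1 and NDRG1, out of 11610 candidates. Their distances from TXNIP were 0.0675, 0.0812 and 0.111 log2 units. HLA-E encodes an antigen-presenting molecule, VDAC1 the channel of the outer mitochondrial membrane and NDRG1 a stress-induced protein. VDAC1 had 5351 and 5301 reads in shNC and 1609 and 1642 in shMETTL14. With 4 libraries in 2 groups, this likeness is mostly a like fold change.

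Other genes of these pathways were read from lists drawn up by role. Earlier results of these data were known by then, so the counts and p-values of list genes are a description. Over all genes tested, 52.5% were called, 27.2% higher and 25.3% lower, with a median log2 fold change of -0.00095. In the list around MondoA and glucose entry, 8 of 10 tested genes were called, 6 higher and 2 lower, with a median log2 fold change of 0.20. KLF10, a factor that MondoA and its paralog ChREBP induce, fell by 0.56 on the log2 scale (edgeR adjusted p = 1.8e-07). PFKFB2, an enzyme that sets the rate of glycolysis, fell by 0.88 (edgeR adjusted p = 8.8e-04). Its isoenzyme PFKFB3 rose by 0.65 (edgeR adjusted p = 2.1e-10), and the neuronal glucose transporter gene SLC2A3 rose by 0.74 (edgeR adjusted p = 1.2e-06). RGS16, a regulator of G protein signalling that glucose induces in other tissues, rose by 1.08 (edgeR adjusted p = 2.5e-11), the only gene of the list past 2-fold.

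MLX, the partner of MondoA, had a log2 fold change of 0.16 (edgeR adjusted p = 0.0106). SLC2A1, whose product GLUT1 is taken into the cell by TXNIP, had 1066 and 986 reads in shNC and 1097 and 1086 in shMETTL14 and did not pass the test, with a log2 fold change of 0.10 (SE 0.058). MLXIPL, which encodes ChREBP, had at most 2 reads in any library.

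Among the other genes of the arrestin fold, 2 of 5 tested were called, both higher, and the median was 0.11. This share of 40% lay below the 52.5% called over all genes tested. They encode VPS26 subunits of retromer, which sorts receptors back from endosomes. VPS26B rose by 0.20 (edgeR adjusted p = 5.2e-04) and VPS26A by 0.15 (edgeR adjusted p = 0.0117), although the VPS26A call was lost with upper quartile or library size scaling, with DESeq2 and without shMETTL14 library 2. The beta-arrestin genes ARRB1 and ARRB2, which desensitize G protein-coupled receptors, had log2 fold changes of 0.11 and 0.026 and did not pass the test. ARRDC5 had no read in any library, although a level too low to be sampled at this depth could still go unseen.

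Of 11 tested ligases of the NEDD4 family and their adaptors, 4 were called, all higher, with a median of 0.093. That was 36.4% of them, against 52.5% of all genes tested. HECW2 rose by 0.56 (edgeR adjusted p = 2.7e-04), SMURF2 by 0.37 (edgeR adjusted p = 4.2e-04) and TSG101, the partner of ARRDC1 in vesicle budding, by 0.29 (edgeR adjusted p = 1.2e-04). NEDD4 and ITCH had log2 fold changes of 0.038 and 0.01 and did not pass the test. Of 7 tested receptors and transporters that alpha-arrestins carry, 2 were called, 1 higher and 1 lower, a share of 28.6%. INSR, the insulin receptor, fell by 0.75 (edgeR adjusted p = 1.0e-06). The median of these 7 genes was -0.04.

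In the thioredoxin and peroxiredoxin system, to which TXNRD1 belongs, 13 of 18 tested genes were called, 12 higher and 1 lower. The median log2 fold change was 0.21. Called genes were 72.2% of this list, against 52.5% of all genes tested. With upper quartile scaling the split was 10 higher and 2 lower. TXN, the thioredoxin that TXNIP binds, had 3640 and 3532 reads in shNC and 4469 and 4660 in shMETTL14 and rose by 0.36 (edgeR adjusted p = 2.8e-07). PRDX1, a peroxidase that thioredoxin recycles, rose by 0.37 (edgeR adjusted p = 5.3e-08). GLRX5, a mitochondrial glutaredoxin of iron-sulfur cluster assembly, rose by 0.83 (edgeR adjusted p = 1.4e-11), TXNDC17 by 0.89 (edgeR adjusted p = 5.7e-08) and the cytosolic glutaredoxin gene GLRX by 1.28 (edgeR adjusted p = 9.3e-05). The other reductase genes were not called higher. TXNRD3 fell by 0.48 (edgeR adjusted p = 0.00107), and TXNRD2 had a log2 fold change of -0.20 and did not pass the test.

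TXNDC5 had 6 and 9 reads in shNC and 23 and 20 in shMETTL14, a log2 fold change of 1.51 (edgeR adjusted p = 0.0105). It shares 60.6% of its exon bases with a read-through gene on the same strand, and its call was lost with DESeq2 and when shNC library 1 or either shMETTL14 library was left out. TXNDC17 shares 32.4% of its exon bases with MED31, and PRDX1 24.9% with MMACHC, both on the other strand, so their counts are less certain.

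TXNRD1 is also a target of NRF2, the activator of antioxidant genes. In that list 10 of 14 tested genes were called, 8 higher and 2 lower, with a median of 0.21. The share called was 71.4%, against 52.5% of all genes tested. NFE2L2, which encodes NRF2, rose by 0.27 (edgeR adjusted p = 3.0e-05). OSGIN1 rose by 1.72 from 9 and 10 reads to 35 and 28 (edgeR adjusted p = 0.00129). The 2 that fell are well-known targets of NRF2. SLC7A11, the cystine transporter subunit, had 5008 and 4958 reads in shNC and 1918 and 2011 in shMETTL14 and fell by 1.33 (edgeR adjusted p = 5.0e-16). NQO1 fell by 0.20 (edgeR adjusted p = 7.3e-04). NFE2L2, NQO1 and OSGIN1 each share between 13.9% and 17.7% of their exon bases with another gene.

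Of 20 tested regulators of FOXO factors, 16 were called, 10 higher and 6 lower, with a median log2 fold change of 0.063. That share of 80% compares with 52.5% of all genes tested. Upper quartile scaling gave 8 higher and 7 lower. SGK1, a kinase related to AKT that also phosphorylates FOXO3, had 78 and 85 reads in shNC and 521 and 538 in shMETTL14. It rose by 2.71 on the log2 scale (edgeR adjusted p = 3.6e-14), from 4.18 ± 0.372 to 27.3 ± 0.951 CPM (SD, n = 2 each), the largest difference among the listed genes that were tested. STK4, which encodes the FOXO-phosphorylating kinase MST1, fell by 0.42 (edgeR adjusted p = 4.6e-06). Of the 14-3-3 genes, whose products hold phosphorylated FOXO in the cytoplasm, YWHAB rose by 0.44 (edgeR adjusted p = 5.0e-09) and YWHAG by 0.42 (edgeR adjusted p = 8.0e-09). YWHAZ and YWHAQ rose by less, 0.22 and 0.11. YWHAE had a log2 fold change of -0.09 and did not pass the test, and SFN had too few reads to be tested. The list also holds YWHAH, which the study selected on these samples, so it is not independent evidence of the direction of that family. FOXO6, the remaining FOXO gene, had 83 to 113 reads in each library and a log2 fold change of -0.19, which did not pass the test.

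Of 27 tested genes that FOXO factors are known to activate, 19 were called, 7 higher and 12 lower. Their median log2 fold change was -0.16. Called genes were thus 70.4% of those tested, against 52.5% over all genes. YPEL3, a growth suppressor, had 253 and 214 reads in shNC and 89 and 99 in shMETTL14 and fell to 40.6% of the control level (edgeR adjusted p = 9.8e-08). SESN3, a sestrin that restrains mTORC1, fell by 0.87 on the log2 scale (edgeR adjusted p = 4.6e-13), and HBP1, a repressor of cell cycle genes, by 0.84 (edgeR adjusted p = 4.4e-10). HBP1 shares 15.4% of its exon bases with COG5 on the other strand. Other targets went the opposite way. IRS2, an adaptor of the insulin receptor, rose by 0.84 (edgeR adjusted p = 1.2e-12), KLF6 by 0.48 (edgeR adjusted p = 1.4e-08) and the mitophagy gene BNIP3 by 0.38 (edgeR adjusted p = 7.1e-07). The liver and muscle targets PCK1, G6PC1, IGFBP1 and TRIM63 had at most 1 read in any library.

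**Figure D5:**
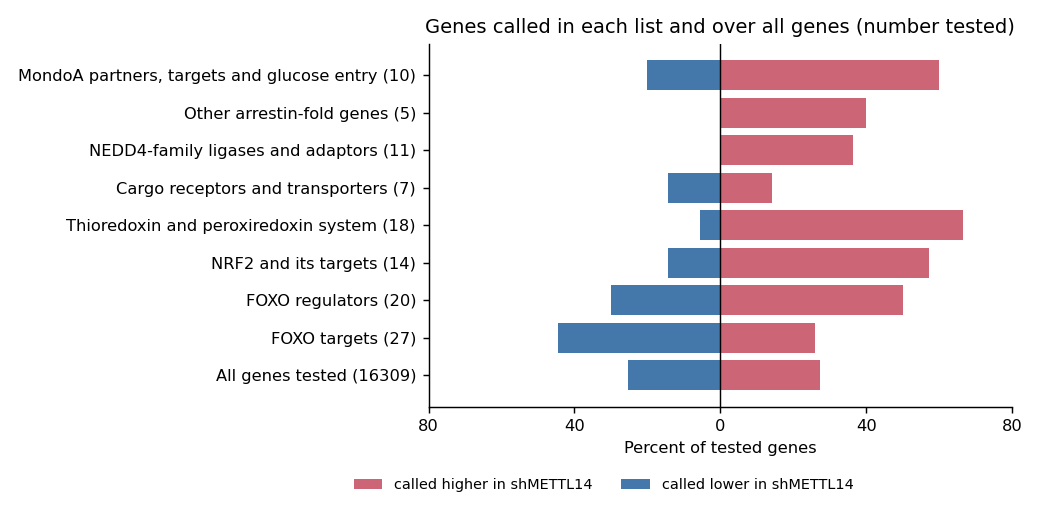
Share of tested genes called higher (red, to the right) and lower (blue, to the left) in shMETTL14 for the 8 lists and for all genes, in percent, with the number tested in brackets. Over all genes the shares are 27.2% higher and 25.3% lower. Bars for the thioredoxin list lie mostly to the right (12 of 18 higher), and those for FOXO targets more to the left (12 of 27 lower).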

How the data were processed

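Total RNA was sequenced from 2 shNC and 2 shMETTL14 libraries of SK-N-BE(2) cells on an Illumina NovaSeq, with both ends read. Raw counts for each Ensembl ID, not normalized, were deposited by the authors in 1 table. The submitters' processing notes name HISAT2 2.1.0, StringTie 1.3.6, HTSeq 0.13.5, edgeR and GRCh38, with no role given. The annotation release and strand setting are not given in the sources used here. Lines that named no gene (19.1% to 19.9% of counts) were left out.

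Counts were tested with the quasi-likelihood F-test of edgeR 4.0.16 in R 4.3.3 on TMM factors, after filterByExpr (minimum count 10, minimum total 15), with Benjamini-Hochberg adjustment over 16309 genes, and called at an adjusted p under 0.05. CPM uses TMM library sizes. The SE is the size of the log2 fold change divided by the square root of the F statistic. It thus rests on a spread moderated across genes. For TXNIP it was 0.0499, against 0.075 with DESeq2. The procedure was tested on simulated data with 200 changed genes, as many raised as lowered, and the same spread for every gene. In the data 52.5% of the genes tested were called, so the simulation cannot show how the calls hold in this setting. An exact permutation test of 2 against 2 libraries cannot go below p = 0.333 (two-sided). Gene names came from a supplied table (SOD2 was not matched), coordinates and exon lengths from GENCODE 29, and upstream sequences from RefSeq, which had windows for all 10 genes.

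The members and lists were chosen with earlier results of these data known, so p-values of the members are not given. The lists were written by role and not from how their genes moved, and their p-values only describe the fit. From each list, called genes past 2-fold and up to 3 called genes in each direction with the smallest adjusted p were named, with uncalled genes where their role needed it; some genes that this rule names are not reported here. The genes most like TXNIP were taken by Euclidean distance over 4 libraries among genes whose mean log2 CPM was 2 or more. Alternatives were RLE, upper quartile and library size scaling, other filters, DESeq2 1.42.0, leaving out each library, and the replicate number as a block. Nothing in the labels says that replicate numbers pair libraries. Differences between the libraries of a group exceeded sampling noise, with a chi-square of 2.8 per gene in shNC and 2.3 in shMETTL14. The table held 0 columns of other samples.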

Additional observations from a re-analysis of the deposited data

How the results depend on the processing

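Of the members, FOXO1 and ARRDC1, which had few reads, had the largest standard errors (0.225 and 0.208 on the log2 scale). The whole table gave 8561 calls, and 5546 with DESeq2. The number of members called was 8 under every alternative except without shNC library 1, where it was 7. Among the other genes of the arrestin fold, 2 were called, but 1 with upper quartile scaling, library size scaling and DESeq2, and 1 to 2 when single libraries were left out, the lower number without shMETTL14 library 2. TXNIP went from -1.68 to -1.75 with upper quartile scaling, which moved the median of all genes by -0.068. ARRDC1 and MLXIP, which were not called, changed sign when single libraries were left out. The libraries share a replicate number only (correlation of same-numbered deviations 0.00483), and with a replicate block 8926 genes were called over the whole table and 8 members. Of the 36 genes of the lists that the naming rule takes, all kept their direction under the alternatives run, and calls were lost 8 times, all for TXNDC5 and VPS26A. The causes were not tested.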
